A study of Mus musculus with 412 samples.

Results

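Sensory neurons of the lumbosacral dorsal root ganglia that innervate the mouse colon were compared by their level of Nrp1, which encodes the receptor neuropilin 1. A lumbosacral (LS) neuron counted as having Nrp1 at 10 TPM or more, where TPM is length-scaled expression that sums to 1000000 in each neuron, and this divided the 140 LS neurons that were kept into 33 with Nrp1 and 107 without it. A kept neuron had at least 9500 genes above 0, which left 140 of the 158 LS neurons in the deposited table. In all, that table holds 325 neurons from LS and thoracolumbar (TL) ganglia. The question was which genes differed by Nrp1 alike in neurons with and without Gfra3, the receptor subunit for artemin that marks many peptidergic neurons. Every neuron came from C57BL/6J mice whose colon wall had been injected with the retrograde tracer Fast Blue. Labelled cells were picked by hand, after dissociation, from separate cultures of TL ganglia (T10 to L1) and LS ganglia (L5 to S2), and sequenced one at a time by Smart-seq2 in library plates.

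The colon receives sensory fibres along the splanchnic nerves, whose cell bodies lie mainly in TL ganglia, and along the pelvic nerves, whose cell bodies lie in LS ganglia. Neuropilin 1 has a short intracellular tail and signals together with plexins as a receptor for class 3 semaphorins, which steer growing axons, and with VEGF receptors on endothelial cells. Gfra3 signals through Ret and is found in neurons that express the peptide CGRP and the heat-gated channel Trpv1.

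The split itself was not a result, because Nrp1 and Gfra3 defined the groups. Of the 140 LS neurons, 68 had Nrp1 at 0 and 39 had it above 0 but under the limit. The highest level under the limit was 9.43 TPM and the lowest above it was 13.97 TPM, so that no neuron lay at the limit itself. Above it, the median was 49.2 TPM and the highest level 157 TPM. Neurons with Nrp1 made up 23.6% of the LS neurons (exact Clopper-Pearson 95% interval 16.8% to 31.5%). Library plates 2 to 6 held 3 of 18, 10 of 22, 5 of 34, 7 of 33 and 8 of 33 such neurons, in that order, and the share was highest in plate 3, at 45.5%. Nrp1 was found in 22 of 73 LS neurons with Gfra3 and in 11 of 67 without it. In TL ganglia 104 of 139 kept neurons had Nrp1. The intervals cover counting error only, and neurons of the same mouse are not independent replicates. Because the mouse of each neuron is not named, each segment counts as 1 sample, and differences are given with their spread over plates and without p-values.

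**Figure D1:**
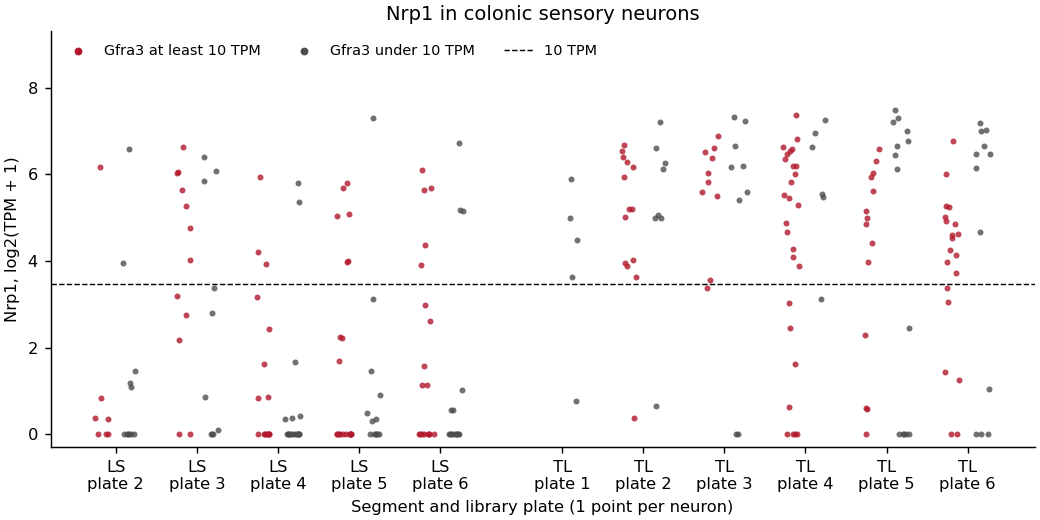
Nrp1 in each kept neuron, in log2(TPM + 1), by segment and library plate, with neurons with Gfra3 in red and neurons without it in grey; the dashed line marks 10 TPM. Most LS neurons lie at or near 0, with 33 of 140 above the line, while 104 of 139 TL neurons lie above it.

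Over all LS neurons, sequencing depth was similar on both sides of the split. The recovered reads ranged from 416007 to 12058968 per LS neuron. The median was 3839980 reads in neurons with Nrp1 and 3355630 in those without, and a median of 14110 and 14162 genes were above 0. In neurons without Gfra3 the medians were 13638 genes above 0 with Nrp1 and 14471 without, and 3941870 and 3321970 reads. In neurons with Gfra3 they were 14292.5 and 13877 genes and 3495170 and 3355630 reads. Mitochondrial reads had medians of 1.83% and 3.23% without Gfra3 and 2.26% and 2.42% with it. The lowest neuron above the Nrp1 limit had 17 Nrp1 reads. Of the 13 Hox genes tested, Hoxd10 was picked to set LS against TL neurons. Its difference by Nrp1 in LS neurons was -0.73 with Gfra3 and -1.57 without. The posterior genes Hoxa10, Hoxc10, Hoxd9 and Hoxc11, given below, were less frequent in LS neurons with Nrp1 than without. Hoxd10, a homeobox gene of caudal spinal levels, was at 10 TPM or more in 31 of 33 LS neurons with Nrp1 and 106 of 107 without, against 1 of 104 and 0 of 35 TL neurons, where a count of 0 allows a share of up to 8.57%. In 3 LS neurons Hoxd10 was under 10 TPM, and whether their label was wrong was not tested. Leaving them out gave 82 genes higher and 167 lower with Nrp1, against 75 and 154 with them, as counted below.

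The comparison covered 10345 genes, those at 10 TPM or more in at least 10% of LS neurons apart from Nrp1 and Gfra3. The difference in mean log2(TPM + 1) between neurons with and without Nrp1 was taken with plate as a term. It was taken separately in neurons with and without Gfra3. A gene counted as higher or lower when that difference was past 1, a 2-fold change of TPM + 1, in the same direction in both. On this rule 75 genes (0.725% of those tested) were higher and 154 genes (1.49%) were lower with Nrp1. In neurons with Gfra3 alone, 210 genes were higher (2.03%) and 312 lower (3.02%), and in neurons without Gfra3, where the Nrp1 group held 11 neurons, 354 were higher (3.42%) and 893 lower (8.63%). The median difference over all genes was -0.05 in both. The balance of the directions depended on scaling. On the deposited values without rescaling to TPM, 120 genes were higher and 77 lower, and the median over all genes moved to 0.42 in neurons with Gfra3 and 0.06 in those without. Of the genes counted on TPM, 63 of the 75 and 138 of the 154 had the same direction in each of the 5 plates. These genes were selected on the same values that describe them, and the values below are a description.

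**Figure D2:**
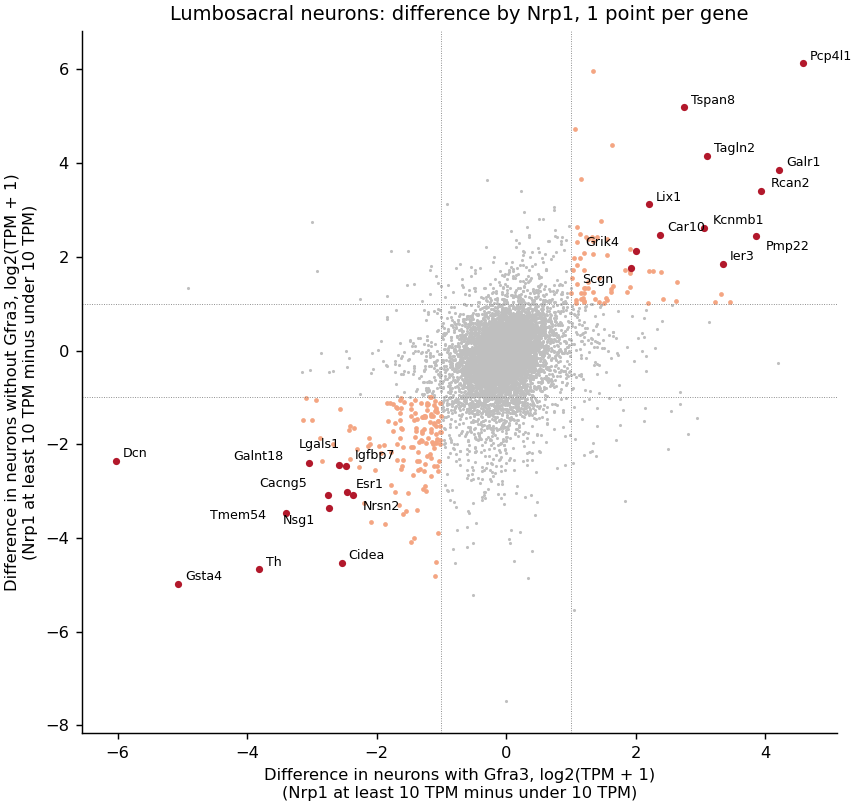
Difference in mean log2(TPM + 1) between LS neurons with and without Nrp1, in neurons with Gfra3 (x axis) and without Gfra3 (y axis), 1 point per gene; dotted lines mark differences of 1 and -1, orange points are genes past 1 in the same direction in both, and red points are the 24 named genes. Pcp4l1 lies farthest out among the higher genes and Gsta4 among the lower ones.

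Pcp4l1 was the gene with the largest shared difference on the higher side, and Th, which encodes tyrosine hydroxylase, the rate-limiting enzyme of catecholamine synthesis, was second on the lower side, behind Gsta4. The promoters of Pcp4l1 and Th are shown because these genes differed in opposite directions with Nrp1. They are given 5′ to 3′ on the minus strand, from 250 bases before to 50 bases after the start of the gene, as in RefSeq for GRCm38.p6, at chr1:171196219-171196518 for Pcp4l1 and chr7:142899946-142900245 for Th. Capitals mark the cAMP response element.
Pcp4l1: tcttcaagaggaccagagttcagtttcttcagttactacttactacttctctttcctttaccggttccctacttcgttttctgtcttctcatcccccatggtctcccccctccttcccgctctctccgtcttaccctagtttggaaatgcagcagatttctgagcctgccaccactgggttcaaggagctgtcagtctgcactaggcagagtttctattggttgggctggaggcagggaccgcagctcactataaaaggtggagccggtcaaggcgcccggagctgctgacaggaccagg
Th: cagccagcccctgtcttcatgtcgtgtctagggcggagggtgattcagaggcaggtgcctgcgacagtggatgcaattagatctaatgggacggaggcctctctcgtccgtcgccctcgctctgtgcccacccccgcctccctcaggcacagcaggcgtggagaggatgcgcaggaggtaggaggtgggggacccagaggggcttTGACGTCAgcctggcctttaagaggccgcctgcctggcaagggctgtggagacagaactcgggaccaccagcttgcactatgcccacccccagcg
The motifs searched on both strands were the cAMP response element TGACGTCA, the estrogen receptor half-site AGGTCA and the T-box half-site AGGTGT, since Esr1 and Tbx3 were lower with Nrp1. The Th window held the cAMP response element, which 1.79% of 32851 RefSeq promoters of this length held. The Pcp4l1 window held none of these letters, which 16.3% of all promoters held for AGGTCA and 13.7% for AGGTGT. A match is a description of the sequence only.

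Genes higher with Nrp1 included a small calmodulin-related protein, a galanin receptor and a myelin protein. Pcp4l1 (ENSMUSG00000038370, chr1:171173262-171196268, GRCm38) encodes a small protein related to the calmodulin-binding Pcp4. It was at 10 TPM or more in 22 of 33 neurons with Nrp1 (66.7%, interval 48.2% to 82.0%) and 7 of 107 without (6.54%, interval 2.67% to 13.0%), with medians of 146 and 0 TPM and highest levels of 4698 and 4388 TPM. The ranges overlapped in full, as 1 neuron without Nrp1 in plate 6 reached the level of the highest neurons with it. The difference in log2(TPM + 1) was 4.58 in neurons with Gfra3 and 6.13 in those without, and it ranged from 2.34 to 8.07 between plates. Median TPM of Pcp4l1 in neurons with Nrp1 was 0 in plate 2, 1086 in plate 3, 234 in plate 4, 52.1 in plate 5 and 85.0 in plate 6, against 0 in every plate in neurons without.

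Galr1 (ENSMUSG00000024553), a receptor for the neuropeptide galanin, was found in 26 of 33 neurons with Nrp1 and 11 of 107 without. Its level ranged from 0 to 225 TPM with a median of 57.3 in neurons with Nrp1, and from 0 to 86.5 TPM with a median of 0 in the others. The groups overlapped, since the highest level without Nrp1 lay above the median of the neurons with it. The difference was 4.21 with Gfra3, 3.86 without Gfra3 and between 3.21 and 5.56 in the plates. Both Pcp4l1 and Galr1 were found in 18 of 33 neurons with Nrp1 and in 2 of 107 without. Either of them was found in 30 of 33 and 16 of 107. The peptide gene Gal, which encodes the ligand of Galr1, was lower with Nrp1, with differences of -1.65 and -1.87 and medians of 703 and 2158 TPM, although it was found in 28 of 33 and 99 of 107 neurons. The difference in Gal was not even, since it was -0.73 over all LS neurons and ranged from -4.76 to 1.97 between plates.

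Pmp22, best known as a protein of peripheral myelin, was found in all 33 neurons with Nrp1 and 93 of 107 without. It ranged from 343 to 2376 TPM with a median of 1121 in neurons with Nrp1, and from 0 to 1525 TPM with a median of 213 in the others. No neuron with Nrp1 was low in it, while neurons without Nrp1 spread from 0 upwards. The differences were 3.86 and 2.45, and the plates lay close together, between 2.78 and 3.66. Rcan2, a regulator of the phosphatase calcineurin, was found in 28 of 33 and 13 of 107 neurons, with medians of 46.2 and 0 TPM. Kcnmb1, the beta 1 subunit of the large-conductance calcium-activated potassium channel, was found in 27 of 33 and 18 of 107, with differences of 3.05 and 2.62.

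The other higher genes were Tagln2, an actin-binding protein, Tspan8, a tetraspanin, Car10, a carbonic anhydrase-related protein, Lix1, Grik4, a kainate receptor subunit, Ier3, an early response gene, and Scgn, the calcium-binding protein secretagogin. Their smaller difference of the 2 Gfra3 groups ranged from 1.76 for Scgn to 3.10 for Tagln2. Tspan8, Car10 and Grik4 were rare without Nrp1, in 5, 5 and 4 of 107 neurons, and were found in 21, 19 and 16 of 33 with it. Tagln2 was uneven, because without Nrp1 it was found in 4 of 51 neurons with Gfra3 but in 34 of 56 without Gfra3.

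**Figure D3:**
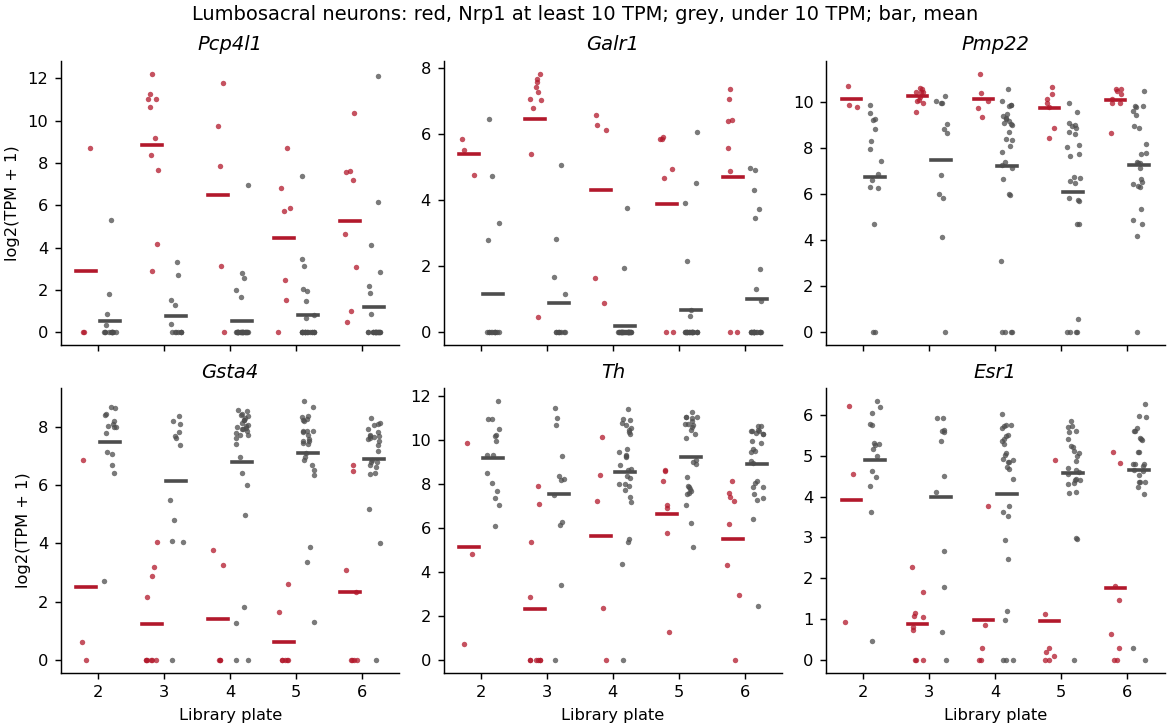
Pcp4l1, Galr1, Pmp22, Gsta4, Th and Esr1 in every kept LS neuron, in log2(TPM + 1), by library plate, for neurons with Nrp1 (red) and without (grey), with bars at the means. In each of plates 2 to 6 the mean of the upper 3 genes is higher, and that of the lower 3 lower, in the neurons with Nrp1. The rule by which these genes were named required the same direction in each plate.

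Genes lower with Nrp1 were led by Gsta4 (ENSMUSG00000032348, chr9:78182774-78209349), a glutathione S-transferase that detoxifies products of lipid peroxidation. It was found in 5 of 33 neurons with Nrp1 (15.2%, interval 5.11% to 31.9%) and 98 of 107 without (91.6%, interval 84.6% to 96.1%). Its level ranged from 0 to 115 TPM with a median of 0 in neurons with Nrp1, and from 0 to 472 TPM with a median of 206 in the others. Most neurons with Nrp1 were at or near 0, and a few without it were too, so that the groups overlapped. The difference was -5.08 with Gfra3, -4.98 without, and between -6.49 and -4.57 in the plates. Plate 5 had no neuron with Nrp1 at 10 TPM of Gsta4.

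Th was found in 20 of 33 neurons with Nrp1 and 103 of 107 without. It ranged from 0 to 1119 TPM with a median of 52.6 in neurons with Nrp1 and from 0 to 3435 TPM with a median of 603 in the others. The ranges overlapped widely, and the difference was one of level, at -3.81 with Gfra3 and -4.67 without. Between plates it ranged from -5.21 in plate 3, where 3 of 10 neurons with Nrp1 had Th, to -2.61 in plate 5, where 6 of 7 had it. In neurons with Gfra3 and no Nrp1 every neuron, 51 of 51, had Th at 66.9 TPM or more.

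Esr1, which encodes estrogen receptor alpha, was found in 6 of 33 neurons with Nrp1 and 90 of 107 without, with medians of 0.756 and 27.8 TPM and differences of -2.46 and -3.02. Gsta4 and Esr1 were both found in 4 of 33 neurons with Nrp1 and 90 of 107 without. Cidea, a protein of lipid droplets, was found in 7 of 33 and 91 of 107, and Cacng5, a regulatory subunit of AMPA receptors, in 1 of 33 and 68 of 107. Nsg1, a protein of neuronal endosomes, was found in 14 of 33 and 99 of 107.

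The remaining lower genes were Tmem54, Igfbp7, a binding protein of insulin-like growth factors, Lgals1, which encodes galectin 1, Galnt18, a member of the family of enzymes that start O-glycans, Nrsn2, and Dcn, which encodes the matrix proteoglycan decorin. Lgals1 was found in 26 of 33 neurons with Nrp1 and 102 of 107 without, with medians of 236 and 1337 TPM. Its difference was -6.74 in plate 4 and between -2.59 and -1.75 in the other plates. Dcn was unequal between the Gfra3 groups, with -6.03 in neurons with Gfra3 and -2.35 in those without.

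**Figure D4:**
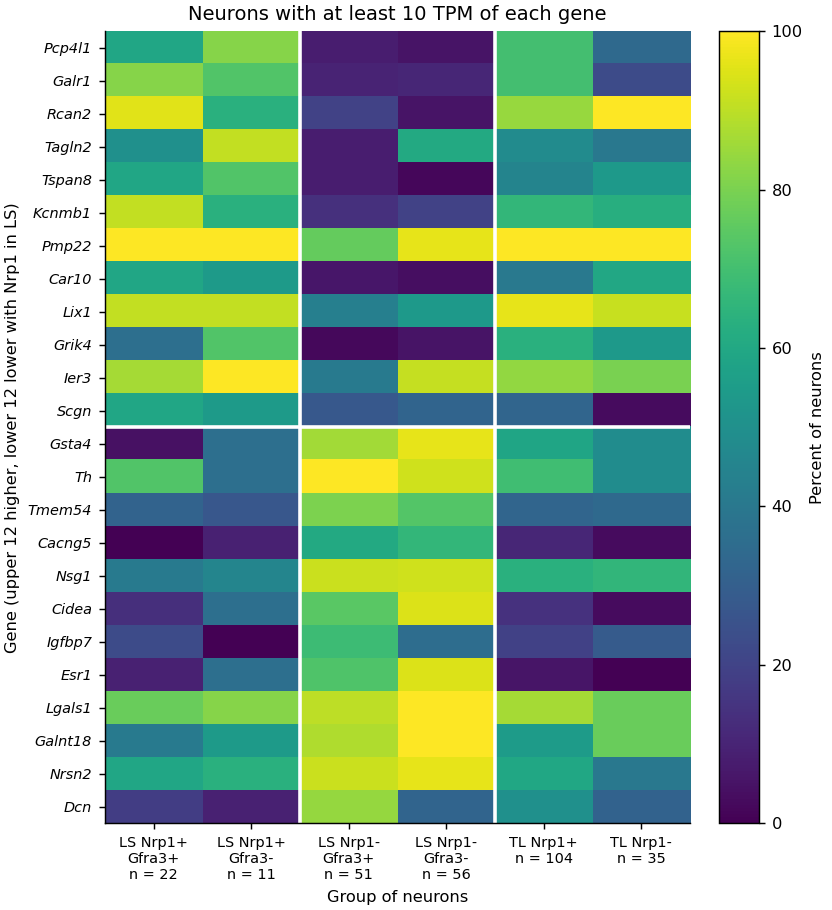
Percent of neurons with at least 10 TPM of each of the 24 named genes (rows; 12 higher and 12 lower with Nrp1) in LS neurons with and without Nrp1 and Gfra3 and in TL neurons with and without Nrp1 (columns). The genes were chosen for a difference in level by Nrp1 in both Gfra3 groups of LS. Their shares can still lie close, as for Pmp22, at 100% of LS neurons with Nrp1 and 86.9% without. The 2 TL columns differ from each other most for Pcp4l1 and Galr1.

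TL neurons, which had not been used to choose the genes, gave a second set of neurons with and without Nrp1. Over all 104 TL neurons with Nrp1 and 35 without, 6 of the 12 higher genes and 3 of the 12 lower genes had the same direction as in LS neurons, while 63.1% of all 10345 genes were higher and 36.8% lower with Nrp1. Past 1 in that direction were 4 of the higher genes, Pcp4l1, Galr1, Tagln2 and Scgn, against 3.83% of all genes, and 0 of the lower genes, against 0.87%. The median TL difference was -0.08 over the higher genes and 0.46 over the lower genes, beside 0.09 over all genes. Th, lower with Nrp1 in LS neurons, had a TL difference of 1.70, with medians of 63.1 TPM with Nrp1 and 8.06 TPM without. Th, Esr1, Lgals1 and Nrsn2, 4 of the 12 lower genes, were past 1 in the direction opposite to LS neurons, where 3.83% of all genes lay, at 1.17 for Esr1, and 0 of the 12 higher genes were, against 0.87%.

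The count depended on Gfra3. Among TL neurons with Gfra3, 65 with Nrp1 and 20 without, 11 of the 12 higher genes and 7 of the 12 lower genes had the LS direction, beside 59.1% and 40.9% of all genes. Past 1 were 4 higher genes, Pcp4l1, Galr1, Tagln2 and Kcnmb1, against 1.45% of all genes, and none of the 12 lower genes, against 0.599%. Past 1 in the opposite direction were 0 higher genes, against 0.599% of all genes, and 1 lower gene, Th, at 1.04, against 1.45%. Among TL neurons without Gfra3, 39 with Nrp1 and 15 without, 5 and 2 of 12 had the LS direction, beside 61.6% and 38.4% of all genes. There 4 of the higher genes were past 1, against 10.8% of all genes, and 0 of the lower genes, against 3.92%. Past 1 in the opposite direction were 5 of the higher genes, Kcnmb1 at -3.23, Rcan2, Car10, Lix1 and Tspan8, against 3.92% of all genes. The same held for 7 of the lower genes, Lgals1 at 3.96, Nrsn2, Th, Gsta4, Esr1, Cidea and Nsg1, against 10.8%. Pcp4l1 and Galr1 were past 1 in both, at 1.32 and 4.33 for Pcp4l1 and 2.48 and 3.62 for Galr1. Pcp4l1 was found in 73 of 104 TL neurons with Nrp1 and 12 of 35 without, and Galr1 in 73 of 104 and 8 of 35.

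The share in LS neurons with Nrp1 was nearer to the shares in both TL groups than to that in LS neurons without Nrp1 for 11 of the 12 higher genes, all but Scgn, and for 12 of the 12 lower genes. The genes had been chosen for their distance from LS neurons without Nrp1, so this count is a description only. The genes that follow were picked after their values had been seen. Rcan2 was found in 84.8% of LS neurons with Nrp1, 84.6% of TL neurons with it and 100% of TL neurons without it, against 12.1% of LS neurons without it. Kcnmb1 was found in 81.8%, 66.3% and 62.9%, against 16.8%. Cidea was found in 21.2%, 14.4% and 2.86%, against 85.0%, and Esr1 in 18.2% and 5.77% with 0 of 35 TL neurons without Nrp1, against 84.1%. Gsta4 lay farther from the TL groups, at 15.2% of LS neurons with Nrp1 and 58.7% and 48.6% of TL neurons with and without it, against 91.6%. The mouse of each neuron is not given in the sources used here, and its part in these shares was not tested.

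The genes that mark LS-specific neurons in this study, Ntm, a cell adhesion molecule, and Hpse, the enzyme heparanase, were not found together with Nrp1. Ntm or Hpse was at 10 TPM or more in 0 of 33 LS neurons with Nrp1, which allows a share of up to 9.09%, and in 81 of 107 without (75.7%, interval 66.5% to 83.5%). Neither was found in any of 104 TL neurons with Nrp1 or 35 without. Ntm reached at most 6.84 TPM and Hpse at most 1.44 TPM in LS neurons with Nrp1. Ntm was in 34 of 51 neurons with Gfra3 and no Nrp1, and Hpse in 41 of 56 neurons with neither. Uts2b, which encodes the peptide urotensin 2B, was in 0 of 33 neurons with Nrp1 and 41 of 107 without, where it reached 8274 TPM. All 41 lacked Gfra3.

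The comparison was therefore repeated without the 81 neurons with Ntm or Hpse, an alternative chosen after the values had been seen. It left 33 neurons with Nrp1 and 26 without, 17 of them with Gfra3 and 9 without. All 24 named genes kept their direction in both Gfra3 groups, and 16 of them were past 1 in both. These genes had been selected on the same neurons, which made a reversal unlikely, so the kept directions are not independent support. The number of genes past 1 in both was 66 higher and 69 lower, against 75 and 154 in all neurons. Pcp4l1 was found in 22 of 33 and 5 of 26 neurons, with differences of 3.43 and 4.82, and Galr1 in 26 of 33 and 7 of 26, with 2.57 and 3.40. Gsta4 was found in 5 of 33 and 17 of 26, with -2.79 and -2.91, and Th in 20 of 33 and 23 of 26, with -2.67 and -2.02. The other 8 were no longer past 1 in both. In neurons with Gfra3 these were Igfbp7, at -0.07, Cidea, at -0.21, Tmem54, at -0.44, and Esr1, at -0.83. In neurons without Gfra3 they were Cacng5, at -0.58, Dcn, at -0.87, Lgals1, at -0.98, and Scgn, at 0.63.

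**Figure D5:**
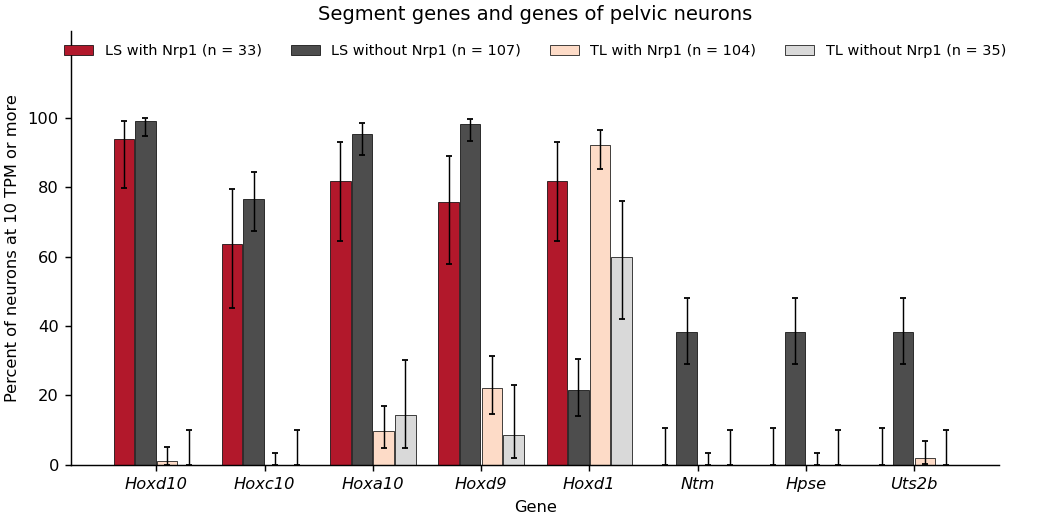
Percent of neurons at 10 TPM or more of 5 Hox genes and of Ntm, Hpse and Uts2b in LS and TL neurons with and without Nrp1; bars are shares and error bars exact 95% intervals. Hoxd10 separates the segments whatever the Nrp1 group, Hoxd1 is more frequent with Nrp1 in both segments, and Ntm, Hpse and Uts2b are at 38.3% in LS neurons without Nrp1 and at 0 in the 33 with it.

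Among Hox genes, 1 of 13 tested was higher in both Gfra3 groups, beside 0.725% of all genes, and 0 were lower, beside 1.49%. Hoxd1, a homeobox gene expressed in nociceptors, was found in 27 of 33 LS neurons with Nrp1 and 23 of 107 without, with medians of 33.5 and 1.74 TPM, and in 96 of 104 and 21 of 35 TL neurons. No posterior gene was past 1 in both groups. Hoxa10 was found in 81.8% and 95.3% of LS neurons with and without Nrp1, Hoxc10 in 63.6% and 76.6% and Hoxd9 in 75.8% and 98.1%. Hoxd10 had a median of 68.2 TPM with Nrp1 and 136 TPM without. Hoxc11 was in 0 of 33 neurons with Nrp1 and 16 of 107 without.

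The list of neuropilins, their co-receptors and related receptors held 17 genes, including Nrp1, which was left out because it defined the groups. Of the others, 10 passed the filter on low values. Of these 10, 1 was higher in both Gfra3 groups, beside 0.725% of all genes, and 0 were lower, beside 1.49%. The median difference over these 10 was 0.22 with Gfra3 and 0.21 without. Plxna2, a plexin that transmits semaphorin signals, was found in 22 of 33 neurons with Nrp1 and 27 of 107 without, with differences of 1.20 and 1.04 and medians of 14.6 and 5.64 TPM. Nrp2, the other neuropilin, had a difference of 0.74 in neurons with Gfra3 and 3.07 in those without, where it was found in 9 of 11 neurons with Nrp1 and 4 of 56 without. Plxna4, the plexin partner of neuropilin 1 for semaphorin 3A, had 0.26 and 1.82. The VEGF receptors Kdr and Flt1 reached 10 TPM in no LS neuron.

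Of 12 class 3 semaphorins and VEGF genes, 11 had a symbol in the table and 4 passed the filter. None of these 4 was past 1 in both groups, beside 0.725% of all genes higher and 1.49% lower. Sema3d, a secreted ligand, was found in 0 of 33 neurons with Nrp1 and 29 of 107 without. Of 20 genes of semaphorin signalling, 16 passed the filter and 1, Mical2, an oxidase that acts on actin, was lower in both, beside 1.49% of all genes, at -1.71 and -1.21. Of 17 other guidance receptors, 5 passed the filter and 1, Ephb6, an ephrin receptor without kinase activity, was higher in both, beside 0.725% of all genes, and was found in 14 of 33 neurons with Nrp1 and 11 of 107 without, with medians of 9.63 and 0 TPM.

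Of 46 G protein-coupled receptors, 26 passed the filter, 3 were higher in both groups, beside 0.725% of all genes, and 3 lower, beside 1.49%, with a median difference of -0.02 with Gfra3 and 0.10 without. The higher ones were Galr1, Npy2r, a receptor of neuropeptide Y, and Mrgprx1. Npy2r was found in 18 of 33 neurons with Nrp1 and 16 of 107 without, and Mrgprx1, an itch receptor, in 14 of 33 and 6 of 107. Mrgprx1 has close paralogues, so that its reads are uncertain. The lower ones were Npy1r, at -1.43 and -4.01, Crhr2, a receptor of urocortins, at -2.87 and -1.88, and the histamine receptor Hrh3, at -1.12 and -1.57. The 2 neuropeptide Y receptors thus lay on opposite sides.

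Of 20 neuropeptide genes, 10 passed the filter, 1 was higher in both groups, beside 0.725% of all genes, and 1 lower, beside 1.49%. Nmb, which encodes neuromedin B, had a median of 660 TPM with Nrp1 and 116 TPM without, with differences of 1.16 and 1.24. Its plates differed in direction, from -0.23 to 2.87. The lower one was Gal, whose plates also differed in direction. Calca, which encodes CGRP, was found in 32 of 33 and 107 of 107 neurons, with differences of 0.48 and -1.77. In neurons without Gfra3, 7 of the 10 peptides were lower with Nrp1, led by Uts2b at -7.49 and Cartpt, the CART peptide, at -5.55, beside 8.63% of all genes. In neurons with Gfra3 1 of the 10 was lower, beside 3.02% of all genes.

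Of 23 transduction channels, 16 passed the filter, 1 was higher in both groups, beside 0.725% of all genes, and 2 lower, beside 1.49%. P2rx5, an ATP-gated channel, was higher, in 17 of 33 and 10 of 107 neurons, while P2rx2, another ATP-gated channel, was lower, in 14 of 33 and 75 of 107. Trpm2, a channel gated by oxidative stress and warmth, was lower, at -1.10 and -1.08. Trpa1, the channel for irritants, was close to the limit, with 2.57 in neurons with Gfra3 and 0.97 in those without. It was found in 20 of 22 neurons with Gfra3 and Nrp1 and 33 of 51 with Gfra3 alone. Of 32 excitability channels, 25 passed the filter and 1 was past 1 in both groups. It was the background potassium channel Kcnk2, lower at -1.17 and -2.68, beside 1.49% of all genes.

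The list of trophic factor receptors held 20 genes, including Gfra3, which was left out because it defined the groups. Of the others, 12 passed the filter and none of these 12 was past 1 in both groups. Of all genes, 0.725% were higher and 1.49% lower in both. Of 33 transcription factors, 17 passed and 1 was past 1 in both, on the lower side, beside 1.49% of all genes. Tbx3, a T-box repressor, was lower, in 6 of 33 and 85 of 107 neurons, with medians of 0.840 and 29.1 TPM. In TL neurons Tbx3 was found in 10 of 104 and 1 of 35. Of 10 injury genes 7 passed the filter, with Gal and Csf1 lower in both, beside 1.49% of all genes. The plates of Csf1 also differed in direction, from -1.97 to 0.21. Of 10 immediate early genes 9 passed, none of them past 1 in both, beside 0.725% of all genes higher and 1.49% lower. Of 12 subtype markers taken from the study, 8 passed and 1, Th, was lower in both, beside 1.49% of all genes. That list was chosen by the study on these neurons and is not independent evidence.

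Several genes differed in only one Gfra3 group or in opposite directions, by a rule that picked them for it. Kcnc4, a fast potassium channel subunit, was found in 1 of 22 neurons with Gfra3 and Nrp1 and 32 of 51 with Gfra3 alone, but in 7 of 11 neurons with Nrp1 alone and 0 of 56 with neither. Its differences were -2.99 and 2.75. Pcp4, the relative of Pcp4l1, had a median of 44.4 TPM with Gfra3 and Nrp1 and 1365 TPM with Gfra3 alone, a difference of -4.91, against 1.34 without Gfra3. Aprt, an enzyme of purine salvage, was found in 22 of 22 and 15 of 51 neurons with Gfra3, a difference of 4.20, against -0.26 without Gfra3. Slc5a7, the choline transporter, and Ptgir, the prostacyclin receptor, had 2.95 and 2.80 with Gfra3 and -1.45 and -1.77 without.

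Serpinb8, a protease inhibitor, had -2.92 with Gfra3 and 1.70 without. Galnt14, a glycosyltransferase, and Chn2, a regulator of the GTPase Rac, had -0.30 and -0.92 with Gfra3 and 3.64 and 3.13 without. Spp1, which encodes osteopontin, had 0.34 with Gfra3 and -4.85 without, where it was found in 3 of 11 neurons with Nrp1 and 34 of 56 with neither. The other genes of this kind were Uts2b and Cartpt, at 0.00 and 1.05 with Gfra3. The difference between the Gfra3 groups was not tested.

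Markers of other cells moved with some of these results. Summed over 10 satellite glia genes, the median was 40.9 TPM (0.510 to 9526) in LS neurons with Nrp1 and 183 TPM (0 to 60415) in those without. Of the 8 tested, 0 were past 1 in both groups, beside 0.725% of all genes higher and 1.49% lower. The medians were 32.3 and 52.5 TPM in neurons with Gfra3 and 93.4 and 1060 TPM in those without Gfra3. Without Gfra3, 3 of the 8 were lower by more than 1, beside 8.63% of all genes. With Gfra3, 0 of the 8 were, beside 3.02% of all genes. Without the tenth of neurons with the most satellite glia TPM, 71 genes were higher and 158 lower. Summed over 12 endothelial genes the medians were 65.1 TPM (13.1 to 170) and 54.6 TPM (7.77 to 127). Of these 12, 2 passed the filter, Esam and Egfl7, and Pecam1, Cdh5 and Cldn5 reached at most 7.81 TPM in any LS neuron. Esam, a junction adhesion molecule, was found in 17 of 33 and 8 of 107 neurons, with differences of 1.94 and 0.74. Without the tenth with the most endothelial TPM, 69 genes were higher and 165 lower.

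Over 10 macrophage genes the medians were 45.6 TPM (0 to 105) and 42.6 TPM (0 to 231), with C1qb alone at medians of 40.5 and 36.7 TPM. Within the Gfra3 groups the macrophage medians were 60.0 and 75.6 TPM with Gfra3 and 7.19 and 29.4 TPM without, and C1qb, the only 1 of the 10 that passed the filter, had differences of -0.05 and -1.94. Over 10 genes of fibroblasts and mural cells they were 3.74 TPM (0 to 833) and 84.6 TPM (0 to 1878), and Dcn was the only 1 of the 10 that passed the filter. Within the Gfra3 groups these medians were 3.48 and 519 TPM with Gfra3 and 12.9 and 8.39 TPM without. The part of these cells in the results was not tested further. Col1a1 and Pdgfra, which were picked from this list of 10, were below 10 TPM in every LS neuron, and the source of the Dcn reads was not tested. The 10 sensory neuron genes had sums of 17578 TPM (12329 to 30547) and 15740 TPM (5642 to 22828), with Avil, an actin regulator of sensory neurons, past 1 in both groups at 2.63 and 1.07.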

How the data were processed

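Single neurons were sequenced with 75 bp reads. The submitters' processing notes name bcl2fastq 2.15.0.4, STAR 2.4.1, featureCounts 1.4.4 and the build GRCm38.p3. The authors deposited 1 table of log2 values for 325 neurons and 45513 Ensembl genes. Satellite glia had not been removed from it, and the other 74 neurons and 13 bath controls were not analysed here. Each value was taken off the log scale as 2 to the power of the value, minus 1, and rescaled to a sum of 1000000 per neuron, as TPM. Reads were recovered as whole numbers with GENCODE M21 exonic lengths (26057 genes) or with lengths found from the values (8712 genes, whose reads are less certain). They were used for depth and as an alternative, not for a count test. Symbols were matched for 44585 gene IDs.

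Differences of mean log2(TPM + 1), Nrp1 at least 10 TPM minus under 10 TPM, were fitted by least squares with library plate as a term (Python 3.11.15, numpy 2.4.6, pandas 2.3.3), for genes at 10 TPM or more in at least 10% of LS neurons. The procedure was tested on simulated data. Named were the 12 genes in each direction with the largest smaller difference of the 2 Gfra3 groups, past 1 in both and alike in direction in every plate with 3 neurons on each side, then 3 per Gfra3 group and direction whose difference in the other group was 0 or opposite, and members of gene lists past 1 in a group or defining their list. Unnamed models, Y-linked genes and Xist were not named. The members and lists were chosen with earlier results of these data known. Alternatives changed the neuron filter, thresholds, scaling, pseudocount, plate term, gene filter and plates, and 3 further ones in LS neurons and 3 in TL neurons were chosen after seeing the data. No doublet caller was run, since neurons were picked one at a time. Intervals are exact Clopper-Pearson 95% intervals (scipy 1.17.1), and a count of 0 was taken to allow 3 counts.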

Additional observations from a re-analysis of the deposited data

Results flagged for a closer look

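Slc5a7, which encodes the high-affinity choline transporter, was flagged because its difference between LS neurons with and without Nrp1 was 2.95 in neurons with Gfra3 and -1.45 in neurons without Gfra3, with the first direction in each of the 5 plates and the second in each of the 5 plates. It was found in 20 of 22 neurons with Gfra3 and Nrp1, 17 of 51 with Gfra3 alone, 5 of 11 with Nrp1 alone and 43 of 56 with neither. The gene had been named for its opposite directions, plate 5 held 1 neuron with Nrp1 and no Gfra3, plate 2 held 1 with Nrp1 and Gfra3, and the difference between the groups was not tested.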

How the results depend on the processing

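The share of LS neurons with Nrp1, 23.6%, lay between 22.6% and 30.0% under other neuron filters, scalings and thinned reads, and between 19.5% and 26.4% without 1 plate. The 75 higher and 154 lower genes became 120 and 77 without rescaling and 16 and 31 with a pseudocount of 10 TPM. Without neurons with Trpa1 they became 113 and 288. There 11 neurons with Nrp1 were left, few of them with Gfra3, because most neurons with Gfra3 and Nrp1 had Trpa1. Higher genes numbered 48 with a filter at 25% of neurons, and lower genes 69 without neurons with Ntm or Hpse. Without 1 plate, 57 to 96 were higher and 143 to 160 lower. With other thresholds for Gfra3, at 5 or 20 TPM, no neuron changed group. Of 504 values of the 24 named genes under 21 alternatives, 466 moved by less than the SD between plates, 38 by more, and 0 reversed. The genes had been selected on these same neurons, which made a reversal unlikely from the start, so these counts are not independent support. They include the Gfra3 thresholds, under which no value could change. The SD was that of the plate differences over all LS neurons, not within the Gfra3 groups. Of the 24, 9 had the LS direction in TL neurons, 18 in TL neurons with Gfra3, and 7 to 11 without 1 plate. No paired analysis was possible because replicate numbers in the labels do not pair neurons. Plate, shared by both groups, was a term of the fit, and without it 84 genes were higher and 167 lower. With the log2 number of genes above 0 added to plate, 86 genes were higher and 134 lower. The median over all genes was then -0.05 in neurons with Gfra3 and 0.06 in those without. Neurons with Nrp1 and no Gfra3 numbered 11, with 1 to 3 per plate.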
